A study of Mus musculus with 6 samples.

Results

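The genes described here encode the voltage-dependent anion channels (VDAC) of the outer mitochondrial membrane, the proteins that fuse and divide mitochondria, and proteins that mark mitochondria for removal by mitophagy. They are the 10 rows of the deposited table named Vdac1, Vdac2, Vdac3, Pink1, Bnip3, Fundc1, Mfn1, Mfn2, Opa1 and Dnm1l, of 23036 rows in all, and all 10 are protein-coding. Liver RNA came from female mice that had eaten a western diet for 20 weeks, starting at an age of 8 weeks. The control mice carried floxed Hkdc1 alleles (HKDC1 fl/fl, called flox here), and the others had Hkdc1 deleted in the liver (HKDC1 LKO, called LKO here). All mice were on the diet, so no comparison with a normal diet is possible. The Cre line that deletes the gene, the strain, and whether each library is a separate mouse are unstated in the sources used here, so the p-values reflect how these libraries differ among themselves, which may be technical. The genotype field of the labels puts 3 libraries in each group, numbered here within each group.

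For 2 libraries the labels contradict each other: the title of flox 3 names LKO, and the title of LKO 1 names flox. Each comparison was therefore made 3 times, on the 6 libraries grouped by the genotype field, on the 4 libraries whose labels agree (flox 1 and 2, LKO 2 and 3) and on all 6 grouped by title. Libraries are named by the genotype field throughout. Hkdc1 itself had 49, 22 and 1 counts in flox 1, 2 and 3 and 10, 1 and 4 counts in LKO 1, 2 and 3, so the library labelled flox 3 had as few as LKO 2. Total counts were 16166515 to 17366295 per library. All 10 hepatocyte markers checked, among them Alb, were detected in every library, with a summed level of 67150 CPM (counts scaled to library size) in flox 1 and 78540 to 103570 in the others. LKO 2 and LKO 3 also held transcripts of the adrenal gland and of fat: 10 adrenal cortex markers summed to 2702 CPM in LKO 2, 373 in LKO 3 and 81.5 to 118 in the others, 6 adrenal medulla markers to 225, 25.1 and at most 0.124, and 8 adipocyte markers to 215, 58.04 and 18.8 to 48.4. Cholangiocyte markers (8 genes) summed to 476 CPM in flox 1, 361 in flox 2 and 33.8 to 169 in the others, and stellate and fibroblast markers (10 genes) to 1211, 850.4 and 302 to 453. In the 4 libraries whose labels agree, both LKO libraries are those with adrenal and fat transcripts. Both flox libraries there have the highest cholangiocyte and stellate sums. Genotype and these differences in content therefore cannot be told apart in that grouping. By the titles too, every flox library had higher cholangiocyte and stellate sums than every LKO library. The part of these differences in the values below was not tested. In bulk RNA, fewer cells of a type and less RNA per cell cannot be told apart.

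VDAC proteins are the pores through which ATP, ADP and other small metabolites cross the outer membrane, and some hexokinases dock on them. In human cell lines, HKDC1 has been reported to bind VDAC proteins and to be needed for mitophagy driven by PINK1. PINK1 is a kinase that accumulates on damaged mitochondria and recruits the ubiquitin ligase Parkin, while BNIP3 and FUNDC1 are receptors in the outer membrane that bind the autophagosome directly. MFN1 and MFN2 fuse outer membranes, OPA1 fuses inner membranes, and the dynamin-related GTPase DRP1, encoded by Dnm1l, constricts and divides the organelle.

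Stretches upstream of the annotated start are shown for 3 of the genes: Bnip3, the gene with the largest difference by the genotype field; Opa1, the gene whose FPKM varied little; and Vdac1, the main VDAC gene of these livers. Of the 10 genes, 8 had an entry in the RefSeq promoter table (build GRCm38.p6); Vdac2 and Vdac3 had none. The 250 bases before the start were searched on both strands for ACGTG, the core of the element bound by hypoxia-inducible factors, for CACGTG, the E-box, which contains ACGTG on both strands, and for GCGCATG, part of the palindromic site of the transcription factor NRF1. Capitals mark the matches, and the last base printed is the one before the start. The positions are chr7:138909507-138909756, minus strand, for Bnip3, chr16:29579084-29579333, plus strand, for Opa1, and chr11:52360601-52360850, plus strand, for the first of 2 Vdac1 entries.
Bnip3: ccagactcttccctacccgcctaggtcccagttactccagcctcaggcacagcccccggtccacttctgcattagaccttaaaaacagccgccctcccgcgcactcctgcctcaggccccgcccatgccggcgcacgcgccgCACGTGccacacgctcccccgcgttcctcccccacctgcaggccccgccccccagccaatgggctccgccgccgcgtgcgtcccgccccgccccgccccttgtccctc
Opa1: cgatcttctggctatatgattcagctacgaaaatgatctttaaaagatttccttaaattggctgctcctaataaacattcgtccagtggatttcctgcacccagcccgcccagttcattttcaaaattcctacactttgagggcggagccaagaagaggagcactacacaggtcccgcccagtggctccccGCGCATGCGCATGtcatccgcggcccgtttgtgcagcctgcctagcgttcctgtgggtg
Vdac1: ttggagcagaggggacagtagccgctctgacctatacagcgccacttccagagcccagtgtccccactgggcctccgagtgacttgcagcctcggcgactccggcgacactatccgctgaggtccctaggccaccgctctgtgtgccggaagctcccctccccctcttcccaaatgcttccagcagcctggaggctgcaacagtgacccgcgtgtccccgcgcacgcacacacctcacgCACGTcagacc
The Bnip3 stretch held CACGTG from -108 to -103, counted from the start. ACGTG was in the stretches of 3 of the 8 genes (Bnip3, 1 of 2 Vdac1 entries and 1 of 3 Mfn2 entries) and of 18.5% of the 27025 genes in the table. CACGTG was in 1 of the 8 and in 6.86% of all genes. GCGCATG was in 1 of the 8, Opa1, where 3 overlapping matches ran from -59 to -47, and in 3.68% of all genes. A match is a run of letters and not evidence that a factor binds there.

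All 10 genes were expressed in all 6 libraries, from 132 counts of Fundc1 in LKO 3 to 5227 of Pink1 in LKO 1. Levels of different genes were compared as FPKM, the authors' unit, which is scaled to gene length and library size. The lengths implied by the deposited FPKM and counts ran from 2265 bases for Bnip3 to 7875 for Opa1. The order below depends on these lengths, and which transcripts they stand for was not tested. Pink1 had the highest mean FPKM, 99.9 ± 8.77 (SD, n = 6 libraries), followed by Vdac1 at 82.2 ± 5.24 and Bnip3 at 71.3 ± 16.2, whose ranges over the libraries overlap. Mfn2 at 31.3 ± 3.48 and Vdac2 at 20.1 ± 2.21 came next, and their ranges did not overlap. Vdac3 (12.4 ± 0.510), Mfn1 (10.5 ± 0.909) and Opa1 (10.2 ± 0.158) followed, with overlapping ranges of Mfn1 and Opa1. Dnm1l (8.07 ± 0.999) and Fundc1 (4.17 ± 0.663) were lowest. Over the 6 libraries the coefficient of variation of the scaled CPM was 5.90% to 19.7% for the 10 genes, with a median of 9.77%. The median over 8268 genes of similar mean CPM was 12.1%.

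**Figure D1:**
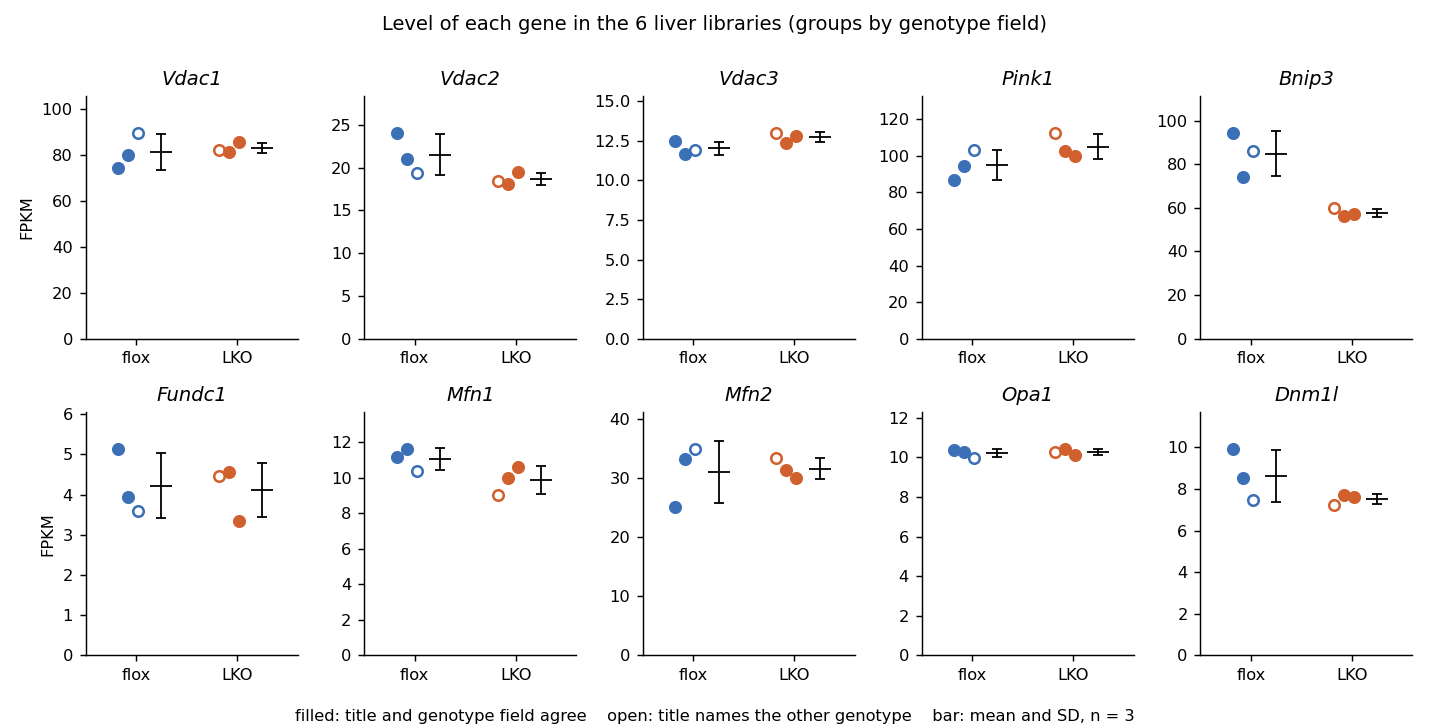
FPKM of each of the 10 genes (vertical axes, each from 0) in the 3 flox and 3 LKO libraries, with open points for the libraries whose title names the other genotype and bars for mean and SD (n = 3). Bnip3 is the gene whose points separate most clearly, at 74.2 to 94.4 FPKM in flox and 56.4 to 59.8 in LKO.

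None of the 10 genes passed the test under any of the 3 groupings. The test was edgeR's quasi-likelihood test, adjusted over all genes tested by the Benjamini-Hochberg method with a threshold of 0.05. By the genotype field, 0 of the 10 passed, against 0 of 14310 genes in all (0%). In the 4 libraries with agreeing labels, 0 of 10 passed, against 91 of 14625 genes (0.622%). By the titles, 0 of 10 passed, against 51 of 14310 (0.356%). DESeq2, limma-voom and limma-trend on FPKM also called 0 of the 10 under each grouping. At an unadjusted edgeR p under 0.05 there was 1 gene of the 10 by the genotype field (8.87% of all genes), 1 with agreeing labels (16.6%) and 0 by the titles (13.9%); in both cases it was Bnip3, lower in LKO. The CPM of the groups did not overlap for 1 of the 10 by the genotype field (14.3% of all genes), for 7 with agreeing labels (49.2%) and for 0 by the titles (19.0%). The median log2 fold change (LKO against flox) over the 10 was 0.06, 0.06 and 0.07 in the 3 groupings, and over all genes -0.01, 0.00 and 0.00. The median size of the log2 fold change, whatever its sign, was 0.11, 0.16 and 0.09 over the 10 and 0.18, 0.25 and 0.18 over all genes. All genes were not matched to the 10 for level.

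**Figure D2:**
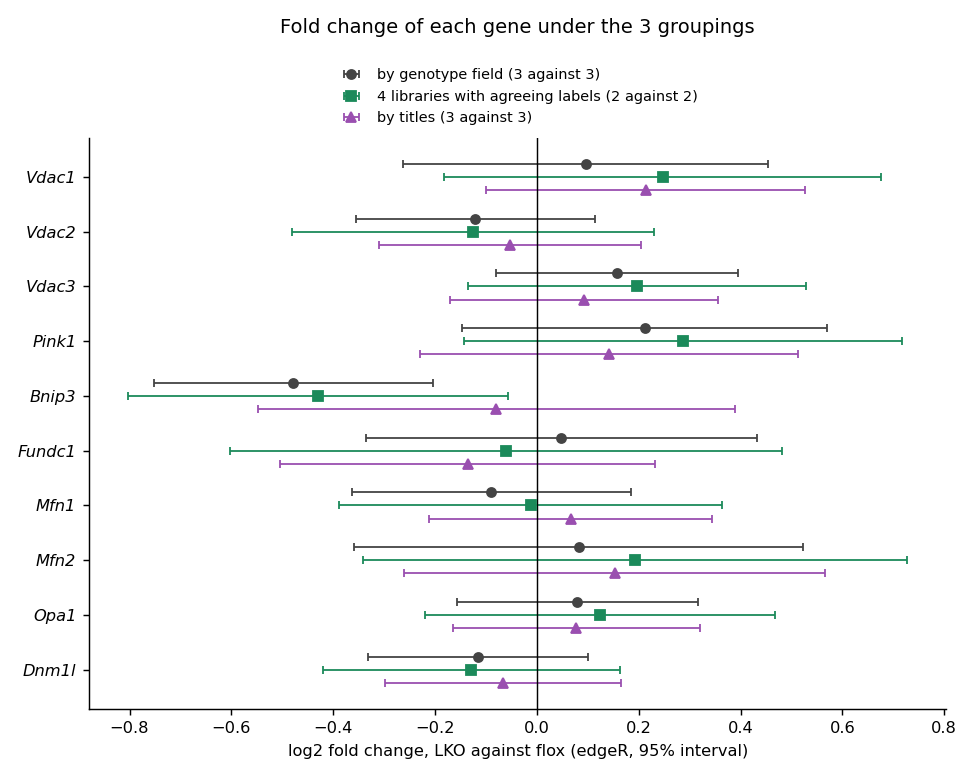
Log2 fold change of LKO against flox (horizontal axis) with its 95% interval for each gene, by the genotype field (circles), in the 4 libraries with agreeing labels (squares) and by the titles (triangles). The intervals of Bnip3 by the genotype field (-0.75 to -0.20) and with agreeing labels (-0.80 to -0.06) lie under 0 before adjustment over all genes, and every other interval contains 0.

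Vdac1 (ENSMUSG00000020402, GRCm39 chromosome 11, 52251687 to 52280224, plus strand), the most abundant VDAC gene, was lowest in flox 1. Its CPM, scaled by the trimmed mean of M-values (TMM) as all CPM here, was 170.4, 209 and 249 in flox 1, 2 and 3 and 222, 211 and 238 in LKO 1, 2 and 3. The groups of the genotype field overlapped, since flox held both the lowest and the highest library. The log2 fold change was 0.10 by the genotype field (SE 0.15, adjusted p = 0.839 by edgeR), 0.25 with agreeing labels (SE 0.18, adjusted p = 0.54 by edgeR) and 0.21 by the titles (SE 0.14, adjusted p = 0.544 by edgeR). Without flox 1 the genotype-field value was -0.03. The 95% intervals of the fold were 0.834 to 1.37, 0.882 to 1.597 and 0.933 to 1.44.

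Vdac2 (ENSMUSG00000021771, chromosome 14, 21875306 to 21895947, plus strand), whose protein also binds and restrains the apoptosis effector BAK, had 100.4, 100.4 and 97.8 CPM in flox 1, 2 and 3 and 90.5, 85.3 and 98.5 CPM in LKO 1, 2 and 3. LKO 3 lay within the flox range, and the other LKO libraries lay below it. The log2 fold changes were -0.12, -0.13 and -0.05 in the 3 groupings, in the order given for Vdac1 (SE 0.10, 0.15 and 0.11, adjusted p = 0.697, 0.722 and 0.877 by edgeR). Its fold was between 0.717 and 1.17 by the widest of the intervals, that of the agreeing libraries.

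Vdac3 (ENSMUSG00000008892, chromosome 8, 23067091 to 23083829, minus strand), the least abundant of these channels, had 59.2, 63.3 and 68.3 CPM in flox and 72.5, 66.5 and 73.6 CPM in LKO. LKO 2 fell inside the flox range. Its log2 fold changes were 0.16, 0.20 and 0.09 (SE 0.10, 0.14 and 0.11, adjusted p = 0.624, 0.527 and 0.775 by edgeR). Vdac1 and Vdac3 were thus above 0 and Vdac2 below 0 in all 3 groupings with TMM scaling, and none passed; with no scaling beyond library size, Vdac3 by the titles was at -0.00213, and without LKO 2, Vdac2 by the titles was at 0.0136.

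Vdac1 made up most of the VDAC FPKM in every library. Its share of the summed FPKM of the 3 genes was 67.0%, 70.9% and 74.2% in flox 1, 2 and 3 and 72.3%, 72.8% and 72.7% in LKO 1, 2 and 3. Vdac2 made up 21.7%, 18.7% and 15.99% in flox and 16.2%, 16.1% and 16.5% in LKO, and Vdac3 between 9.83% and 11.4%. By these FPKM shares, the LKO libraries were close to each other and lay inside the range of the flox libraries for Vdac1 and Vdac2. The shares depend on the lengths implied by the deposited values: 2620 bases for Vdac1, 4769 for Vdac2 and 5420 for Vdac3. In counts, the Vdac1 share ran from 51.6% in flox 1 to 60% in flox 3. That of Vdac2 ran from 23.5% in LKO 2 to 30.4% in flox 1. The summed FPKM of the 3 genes ranged from 111 in flox 1 to 121 in flox 3, with LKO at 112 to 118. The summed FPKM of the hexokinase genes Hk1, Hk2 and Hk3 was 10.6, 7.17 and 6.68 in flox and 5.85, 8.95 and 5.61 in LKO, against 0.0119 to 0.564 for Hkdc1.

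**Figure D3:**
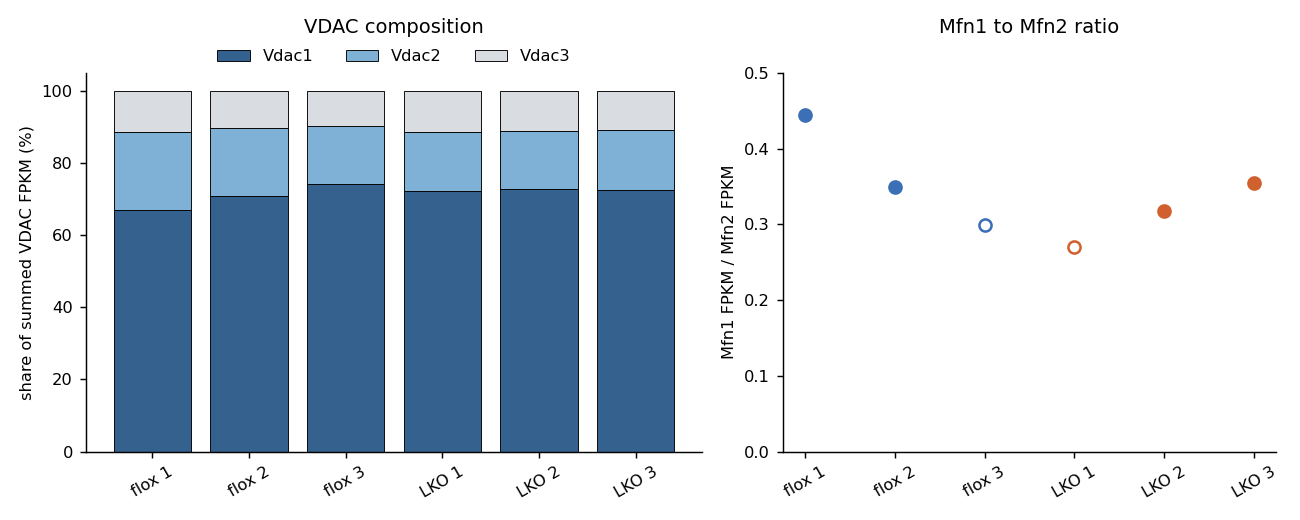
Left, share of each gene in the summed FPKM of Vdac1, Vdac2 and Vdac3 (percent) in each library; right, FPKM of Mfn1 divided by that of Mfn2, with open points for libraries whose title names the other genotype. Flox 1 has the smallest Vdac1 share, 67.0%, and the highest Mfn1 to Mfn2 ratio, 0.444.

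Pink1 (ENSMUSG00000028756, chromosome 4, 138040720 to 138053618, minus strand), the damage-sensing kinase of mitophagy, had 202, 253 and 292 CPM in flox 1, 2 and 3 and 309.5, 272 and 283 CPM in LKO 1, 2 and 3. Flox 1 was lowest and flox 3 lay inside the LKO range, so the groups of the genotype field overlapped; with agreeing labels both LKO libraries were above both flox libraries. Log2 fold changes were 0.21, 0.29 and 0.14 (SE 0.15, 0.18 and 0.16, adjusted p = 0.657, 0.482 and 0.754 by edgeR). The fold with agreeing labels was 1.22 (95% interval 0.905 to 1.64). Leaving out 1 library at a time gave log2 fold changes of 0.09 to 0.34 by the genotype field.

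Bnip3 (ENSMUSG00000078566, chromosome 7, 138492565 to 138511248, minus strand), a receptor of mitophagy that is a textbook target of hypoxia-inducible factor, showed the largest difference of the 10 by the genotype field. It had 187, 168 and 206 CPM in flox 1, 2 and 3 and 139, 126 and 137 CPM in LKO 1, 2 and 3. Every library labelled LKO lay under every library labelled flox, and the libraries with contradictory labels, flox 3 and LKO 1, lay with the group of their genotype field. By the genotype field flox averaged 187 ± 19.0 CPM and LKO 134 ± 6.88 (SD, n = 3 each), with a log2 fold change of -0.48 (SE 0.12, adjusted p = 0.554 by edgeR). With agreeing labels flox averaged 178 ± 13.5 CPM and LKO 132 ± 7.38 (SD, n = 2 each), with a log2 fold change of -0.43 (SE 0.15, adjusted p = 0.248 by edgeR). By the titles flox averaged 165 ± 24.05 CPM and LKO 156 ± 43.3 (SD, n = 3 each), and the groups overlapped (log2 fold change -0.08, SE 0.20, adjusted p = 0.902 by edgeR). By the genotype field its adjusted p depended on the tool, from 0.0857 by DESeq2 to 0.683 by limma-trend on log2(FPKM + 1). Leaving out 1 library at a time kept the genotype-field value between -0.56 and -0.40. By the titles the values ran from -0.32 to 0.05, with the sign changing without flox 1 (0.03), LKO 2 (0.05) or LKO 3 (0.01).

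Bnip3 is also the gene of the 10 whose reads are hardest to assign. In the GENCODE vM21 transcripts, 47.2% of the 50-base words and 24.6% of the 100-base words of Bnip3 also occur in transcripts of other genes, mainly Gm45507, Gm16439 and AC160336.1. For Vdac3, which has the pseudogene Vdac3-ps1, the shares were 12.8% and 9.94%, and for the other 8 genes at most 4.90% and 2.17%. The deposited table has no row named Gm45507, Gm16439, AC160336.1 or Vdac3-ps1, so no counts under these names could be compared. How reads with several matches were counted is unstated in the sources used here. The values of Bnip3, and to a smaller degree of Vdac3, are uncertain for that reason.

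Fundc1 (ENSMUSG00000025040, chromosome X, 17422803 to 17438564, minus strand), the other outer-membrane receptor, was the least abundant of the 10, with 10.6, 9.28 and 8.95 CPM in flox and 10.8, 10.6 and 8.36 CPM in LKO. The groups overlapped under every grouping. The log2 fold changes were 0.05, -0.06 and -0.14 (SE 0.16, 0.22 and 0.16, adjusted p = 0.929, 0.921 and 0.763 by edgeR). It had 132 to 204 counts per library, and the 95% interval of its fold by the genotype field was 0.792 to 1.35.

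Mfn1 (ENSMUSG00000027668, chromosome 3, 32583614 to 32633388, plus strand), a GTPase of outer-membrane fusion, had 59.6, 70.9 and 67.4 CPM in flox and 56.7, 60.3 and 68.8 CPM in LKO. The groups overlapped under every grouping, with log2 fold changes of -0.09, -0.01 and 0.07 (SE 0.12, 0.15 and 0.12, adjusted p = 0.803, 0.978 and 0.854 by edgeR). Mfn2 (ENSMUSG00000029020, chromosome 4, 147958056 to 147989161, minus strand), which also tethers mitochondria to the endoplasmic reticulum, had 114, 172 and 192 CPM in flox and 179, 161 and 165 CPM in LKO. Flox 1 was far under the other 5 libraries, which lay between 161 and 192. The log2 fold changes of Mfn2 were 0.08, 0.19 and 0.15 (SE 0.19, 0.22 and 0.18, adjusted p = 0.894, 0.716 and 0.76 by edgeR), and without flox 1 they were -0.11, -0.08 and -0.02. The ratio of Mfn1 to Mfn2 FPKM was 0.444, 0.35 and 0.298 in flox and 0.27, 0.317 and 0.355 in LKO, so Mfn2 was the main mitofusin mRNA in every library.

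Opa1 (ENSMUSG00000038084, chromosome 16, 29398152 to 29473702, plus strand), the inner-membrane fusion GTPase, had 71.4, 80.9 and 83.3 CPM in flox and 83.1, 81.1 and 84.4 CPM in LKO. Flox 1 was again lowest and the other libraries lay within 80.9 to 84.4. On the FPKM scale, which uses library size alone, Opa1 was 9.99 to 10.4 in all 6. Opa1 had log2 fold changes of 0.08, 0.12 and 0.08 (SE 0.10, 0.14 and 0.11, adjusted p = 0.796, 0.715 and 0.797 by edgeR), and with library size alone they were 0.01, -0.01 and -0.02.

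Dnm1l (ENSMUSG00000022789, chromosome 16, 16130094 to 16176823, minus strand), the fission GTPase, had 45.05, 44.4 and 41.0 CPM in flox and 38.7, 39.7 and 41.9 CPM in LKO. LKO 3 was above flox 3, so the groups of the genotype field overlapped, while both agreeing LKO libraries lay under both agreeing flox libraries. Dnm1l had log2 fold changes of -0.11, -0.13 and -0.07 (SE 0.09, 0.12 and 0.10, adjusted p = 0.685, 0.643 and 0.818 by edgeR). The intervals of the fold were 0.795 to 1.07, 0.747 to 1.12 and 0.813 to 1.12.

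By TMM-scaled CPM, flox 1 was the lowest of the 6 libraries for 5 of the 10 genes (Vdac1, Vdac3, Pink1, Mfn2 and Opa1). It was the highest for 2 (Vdac2 and Dnm1l). This order depends on the scaling: the TMM factor of flox 1 was 1.14, against 0.943 to 1.01 for the others. By FPKM, flox 2 was lowest for Vdac3 (11.7) and flox 3 for Opa1 (9.99). Flox 1 was by FPKM also the highest library for Bnip3 (94.4) and Fundc1 (5.13). On a log2 scale of CPM over the mean of the 6 libraries, flox 1 was at -0.52 for Mfn2, -0.41 for Pink1 and -0.35 for Vdac1. By CPM, flox 3 was the highest library for Vdac1, Bnip3 and Mfn2. Flox 1 also had the lowest hepatocyte marker sum and the highest cholangiocyte and stellate marker sums given above, and flox 3 the highest hepatocyte sum; their part in these values was not tested.

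**Figure D4:**
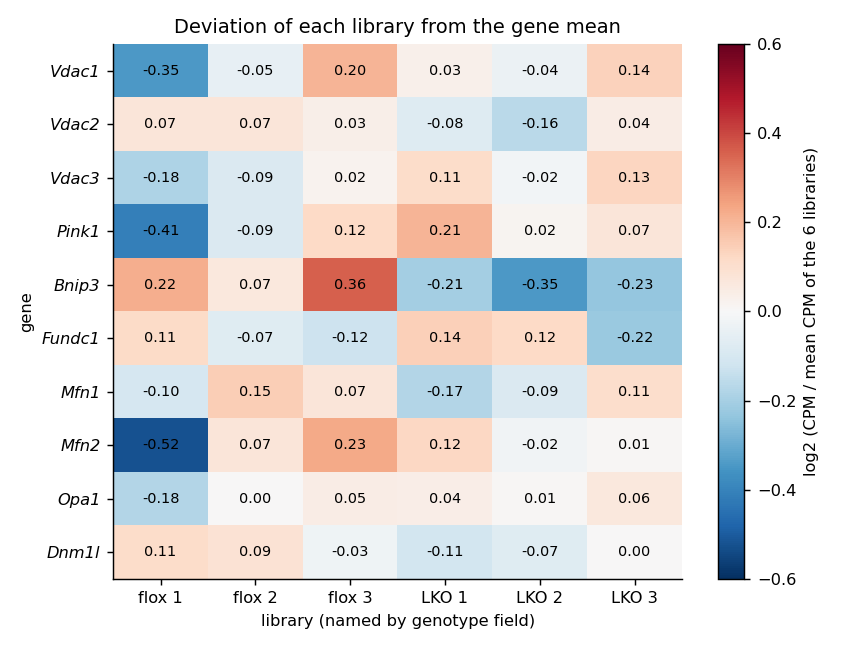
Log2 of the CPM of each gene over its mean in the 6 libraries (colour and printed value), with genes in rows and libraries in columns. Flox 1 stands out as low for Mfn2 (-0.52), Pink1 (-0.41) and Vdac1 (-0.35), and the 3 LKO libraries are low for Bnip3 (-0.35 to -0.21).

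Among 136 genes of the pathway lists with a mean of at least 1 CPM, the gene whose log2 CPM ran most nearly parallel over the 6 libraries was Tfam, the mitochondrial DNA packaging factor, for Vdac1 (Pearson r 0.993), Fkbp8, a mitophagy receptor, for Pink1 (0.992) and Nipsnap1, a marker of damaged mitochondria, for Vdac3 (0.988). For Bnip3 it was its paralog Bnip3l (0.876), which codes for the receptor NIX. For the other genes it was Hspa9 with Opa1 (0.959), Tomm40 with Mfn2 (0.945), Yme1l1 with Vdac2 (0.915), Tfb2m with Mfn1 (0.913), Itpr3 with Dnm1l (0.854) and Bid with Fundc1 (0.711). These values are descriptions over 6 libraries that share depth and composition, and each is the highest of 136. Bnip3l had 86.3, 80.9 and 95.1 CPM in flox and 72.0, 78.3 and 76.9 CPM in LKO, with no overlap by the genotype field. Its log2 fold changes were -0.21, -0.10 and 0.06, and it did not pass (adjusted p = 0.573, 0.754 and 0.875 by edgeR).

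The other genes of these pathways were taken from 6 lists, on which a few genes stand more than once, and 0 genes on any list passed the edgeR test under any grouping. Of all genes, 0%, 0.622% and 0.356% passed in the 3 groupings. An unadjusted edgeR p under 0.05 was reached by 8.87%, 16.6% and 13.9% of all genes, beside which the list counts below should be read. The median log2 fold changes of all genes were -0.01, 0.00 and 0.00. The share of all genes above 0 was not computed. Of 26 tested genes of the fission and fusion machinery, 18 were above 0 by the genotype field, 20 with agreeing labels and 19 by the titles, with median log2 fold changes of 0.09, 0.13 and 0.10. At an unadjusted edgeR p under 0.05 there were 0 by the genotype field, 2 higher and 1 lower with agreeing labels, and 2 higher and 2 lower by the titles. Mtfp1, an inner-membrane protein that promotes fission, had 18.7, 21.7 and 35.8 CPM in flox and 32.7, 29.5 and 39.3 CPM in LKO. Flox 3 lay inside the LKO range. Its log2 fold changes were 0.42 by the genotype field, 0.77 with agreeing labels and 0.52 by the titles (SE 0.24, 0.18 and 0.21, adjusted p = 0.598, 0.131 and 0.327 by edgeR). DESeq2 called it with agreeing labels and in neither of the other groupings. Miga1, encoding mitoguardin 1, stood at -0.56, -0.81 and -0.60 on the log2 scale in these groupings (adjusted p = 0.564, 0.227 and 0.344 by edgeR).

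Of 26 mitophagy receptor and PINK1-Parkin genes, 12, 17 and 17 were above 0 in the 3 groupings (medians -0.00, 0.07 and 0.04), and 0 had an unadjusted edgeR p under 0.05. Nipsnap1 and Fkbp8 had the lowest p in the agreeing libraries, with log2 fold changes of 0.40 and 0.31 (adjusted p = 0.364 and 0.441 by edgeR), against 0.32 and 0.25 by the genotype field and 0.18 and 0.14 by the titles. Of 30 core autophagy genes, 22, 22 and 23 were above 0 (medians 0.06, 0.15 and 0.06), with an unadjusted edgeR p under 0.05 for 2 higher and 1 lower, 3 higher, and 3 higher. Atg101, a subunit of the ULK1 complex that starts autophagosomes, had 25.6, 24.6 and 31.1 CPM in flox and 35.8, 34.96 and 37.1 CPM in LKO. These groups did not overlap by the genotype field, and its log2 fold changes of 0.41 by that field, 0.52 with agreeing labels and 0.26 by the titles did not pass (adjusted p = 0.554, 0.133 and 0.527 by edgeR). Stx17, the SNARE that fuses autophagosomes with lysosomes, had log2 fold changes of 0.10, 0.31 and 0.31 (adjusted p = 0.816, 0.267 and 0.18 by edgeR).

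The VDAC partners include hexokinases, adenine nucleotide translocases, calcium-transfer and BCL-2 family proteins, and others such as Acsl1. Of these partners, 8 of 24, 7 of 25 and 8 of 24 tested genes were above 0. Their medians were -0.06, -0.10 and -0.07. An unadjusted edgeR p under 0.05 was reached by 1 higher, by 2 higher and 2 lower, and by 3 higher and 2 lower. The counts with agreeing labels include Hkdc1 itself, as 1 of the 2 lower. Acsl1, a fatty acid activating enzyme, had log2 fold changes of 0.28, 0.67 and 0.55 (adjusted p = 0.718, 0.206 and 0.211 by edgeR), and DESeq2 called it with agreeing labels and by the titles. Hkdc1, which is on this list, passed the filter on low counts with agreeing labels only, at a log2 fold change of -3.59 (SE 0.75, adjusted p = 0.11 by edgeR).

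Of 19 genes of mitochondrial biogenesis and mass, 14, 15 and 15 were above 0 (medians 0.10, 0.21 and 0.15), with 0, 2 and 2 higher at an unadjusted edgeR p under 0.05. Polrmt and Twnk, the polymerase and the helicase that transcribe and replicate mitochondrial DNA, had log2 fold changes of 0.42 and 0.35 with agreeing labels (adjusted p = 0.228 and 0.297 by edgeR), against 0.26 and 0.26 by the genotype field and 0.27 and 0.19 by the titles. Of 15 hypoxia response genes, listed because Bnip3 is one of their kind, 11, 10 and 9 were below 0 (medians -0.21, -0.24 and -0.13). An unadjusted edgeR p under 0.05 was reached by 0, by 1 higher and 2 lower, and by 1 higher and 2 lower. Ddit4, an inhibitor of mTORC1, had 23.4, 36.8 and 10.7 CPM in flox and 17.8, 17.2 and 15.7 CPM in LKO. By CPM, flox 3 was thus lowest for Ddit4 and highest for Bnip3. By FPKM, Bnip3 was highest in flox 1 instead (94.4, against 85.9 in flox 3). The log2 fold changes of Ddit4 were -0.48, -0.87 and -0.84 (adjusted p = 0.681, 0.162 and 0.232 by edgeR). Those of Egln3, an oxygen-sensing prolyl hydroxylase, were -0.32, -0.60 and -0.54 (adjusted p = 0.68, 0.274 and 0.25 by edgeR). Egln3 had 31.8, 20.8 and 16.1 CPM in flox and 20.7, 16.035 and 18.5 CPM in LKO, so flox 1 was highest. By CPM, flox 1 was also the highest library for Slc2a1, Ankrd37, Adm, Ndrg1, P4ha1 and Kdm3a. Flox 2 was highest for Ddit4 and Car9, flox 3 for Pdk1 and Bnip3l, and LKO 3 for Vegfa, Egln1, P4ha2 and Higd1a. The part of flox 1 in the list medians was not tested.

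**Figure D5:**
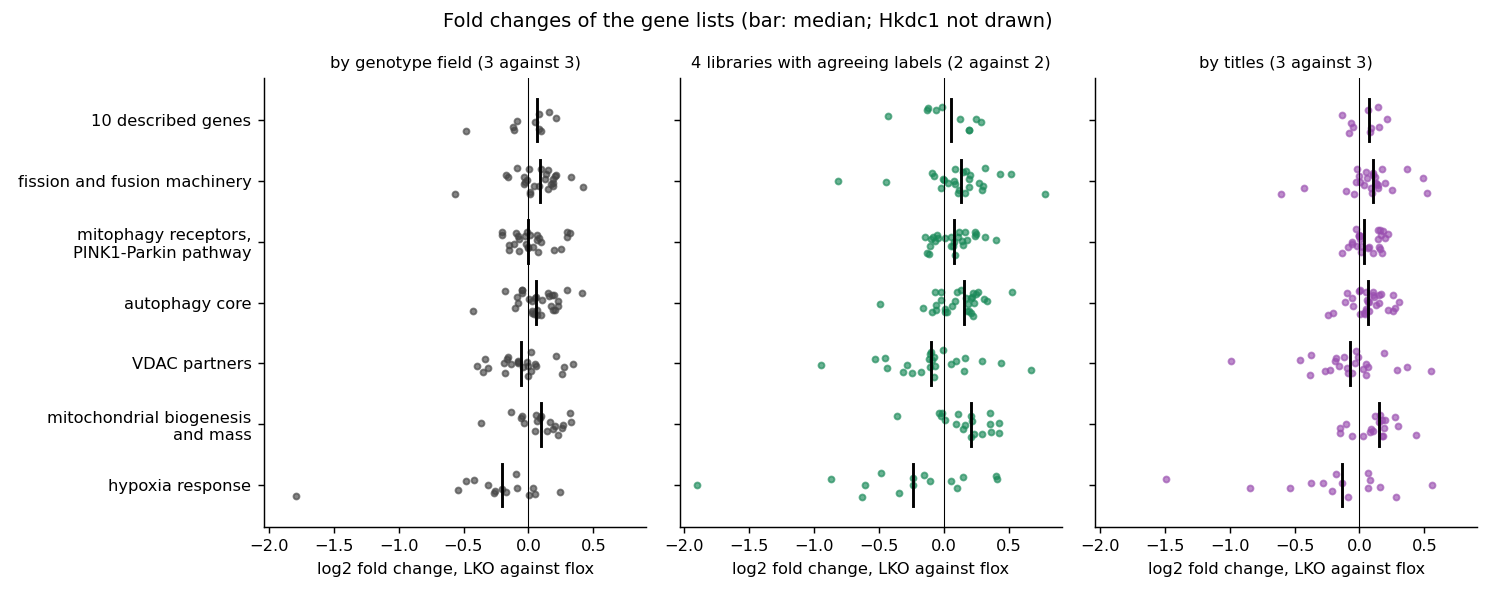
Log2 fold change of LKO against flox (horizontal axis) of every tested gene of the 10 described genes and of the 6 lists (rows), in the 3 groupings (panels), with a black bar at each list's median and Hkdc1 not drawn. The medians lie between -0.24 and 0.21, and 0 of the genes drawn passed the edgeR threshold.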

How the data were processed

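Liver mRNA of 6 libraries was measured by poly-A RNA-seq with an NEBNext Ultra kit, per the labels' protocols. For 23036 genes the authors deposited raw, whole-number counts, not normalized, beside FPKM values. The tools, per the submitters' processing notes, included featureCounts, HISAT, fastp, StringTie and Cufflinks, with build GRCm39; the sources used here state no version, annotation or strand setting. Over 7260 genes with at least 200 counts in each library, the gene length implied by the deposited FPKM and counts differed between libraries by at most 0.036%, so the FPKM are scaled by library total alone.

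Counts were tested with edgeR 4.0.16 (R 4.3.3, glmQLFit and glmQLFTest) on the whole table, with TMM scaling, genes kept by filterByExpr (at least 10 counts, total at least 15), p-values adjusted by Benjamini-Hochberg and called under 0.05. The standard error is the size of the log2 fold change divided by the square root of F, and 95% intervals use the fit's degrees of freedom. All 10 genes passed the filter. CPM use TMM scaling over the 6 libraries. Total counts of 16166515 to 17366295 set the depth; a count of 3 corresponded to 0.155 to 0.195 CPM.

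The 10 genes and the lists were chosen with earlier results of these data known. Symbols found 231 of the 233 genes on the lists, 1 was found by synonym and 1 by an older symbol. Genes named were the 10, Hkdc1, the 2 genes of lowest p in each list with agreeing labels, any list gene past the threshold (at most 6 per list), and for each of the 10 the list gene of highest correlation. One gene that this rule names is not reported here. Hk1, Hk2, Hk3 and Acsl1 were named after their values were seen. No list was tested as a set. Alternatives were median-of-ratios factors, library size alone, scaling without the 20 most abundant genes, no filter on low counts, DESeq2 1.42.0, limma 3.58.1 (voom, or trend on log2(FPKM + 1) and log2(FPKM + 0.1)) and leaving out each library. Promoter sequences come from RefSeq tables of GRCm38.p6 and transcripts from GENCODE vM21; gene coordinates are the deposited GRCm39 ones.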

Additional observations from a re-analysis of the deposited data

How the results depend on the processing

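None of the 10 genes (0) passed under any alternative in any of the 3 groupings. Of 400 fold changes recomputed for them, 372 kept their direction and 28 changed sign. Counts of all genes moved more. By the genotype field 0 became 35 by DESeq2 and 1 by limma-trend with either pseudocount, and stayed 0 without any 1 library (0 to 0). With agreeing labels 91 became 733 by DESeq2, 44 by limma-voom, 1108 with no filter, and 0 to 759 without 1 library (0 without flox 1, 50 without flox 2, 759 without LKO 2, 629 without LKO 3); in these fits 1 group has a single library, whose spread is taken from the other group. By the titles 51 became 631 by DESeq2, 24 by limma-voom, 30 by limma-trend on log2(FPKM + 1), 247 with no filter, and 0 to 238 without 1 library (0 without flox 2, 1 without LKO 3, 4 without LKO 2, 20 without flox 1, 29 without flox 3, 238 without LKO 1). The cause was not tested.

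Library size alone moved the median log2 fold change of all genes to -0.08, -0.13 and -0.10 in the 3 groupings, so values near 0 fell with it. With library size alone, log2(FPKM + 1) and log2(FPKM + 0.1), in this order, Fundc1 by the genotype field became -0.0338, -0.0257 and -0.0309, and Opa1 with agreeing labels -0.00773, -0.00771 and -0.00839. By the titles Vdac3 became -0.00213, -0.00238 and -0.0025, Mfn1 -0.0347, -0.0261 and -0.0277, and Opa1 -0.0170, -0.0168 and -0.0183. Leaving out 1 library gave, by the genotype field, -0.0285 to 0.241 for Vdac1, -0.105 to 0.239 for Mfn2 and -0.0139 to 0.16 for Fundc1. With agreeing labels it gave -0.236 to 0.102 for Fundc1, -0.0776 to 0.506 for Mfn2 and -0.136 to 0.105 for Mfn1. By the titles it gave -0.324 to 0.055 for Bnip3, -0.017 to 0.273 for Mfn2 and -0.0958 to 0.0136 for Vdac2. With no filter on low counts, edgeR called Mtfp1 and Ddit4 with agreeing labels. In counts, which favour long genes, the mean VDAC shares were 56.9%, 25.3% and 17.7% in place of 71.7%, 17.5% and 10.8% in FPKM.

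No paired analysis was possible because the labels give no replicate number shared by the groups. Each group holds 3 or 2 libraries, and Fundc1, at 132 to 204 counts per library, is the gene of the 10 with the lowest counts.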

Other observations

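The ratio of Pink1 to Bnip3 FPKM, looked at after their values were seen and therefore given with no test, was 0.916, 1.28 and 1.2 in flox 1, 2 and 3 and 1.88, 1.82 and 1.75 in LKO 1, 2 and 3. The lowest LKO library stood above the highest flox library, and flox 3 and LKO 1 lay with the group of their genotype field. Bnip3 alone also kept the groups of that field apart, as did 14.3% of all genes, while those of Pink1 overlapped. Bnip3 was picked with that separation seen, so the place of flox 3 and LKO 1 in this ratio cannot decide which label is right. Hkdc1 counts, at most 49 per library, placed flox 3 and LKO 1 with their titles instead. The cholangiocyte marker sums did the same, at 476, 361 and 79.7 CPM in flox 1, 2 and 3 and 169, 33.8 and 61.1 CPM in LKO 1, 2 and 3. Whether the Hkdc1 counts follow the genotype or the cell content of the libraries was not tested. Which label is right for flox 3 and LKO 1 was not tested.

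No promoter entry of Pink1, Fundc1, Mfn1 or Dnm1l held any of the 3 motifs in its 250 bases, which says only that these letters are not in that window.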
